A study of Mus musculus with 12 samples.

Results

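RNA of Nrn1, the gene that encodes neuritin, was measured in CD4+ T cells of SJL mice without gonads. The mice came from a cross in which sex chromosomes and gonad type vary separately. The row of Nrn1 (ENSMUSG00000039114) is 1 of 39017 genes in the count table and 1 of 14585 that passed the filter on low counts. It was chosen by its difference in level between XXSry and XY-Sry cells in earlier results of these data, so that comparison is given as a description, with no test. There were 12 libraries, with 3 in each of 4 groups. XX and XY- cells came from gonadal females, where Y- is a Y chromosome that lacks the testis-determining gene Sry. XXSry and XY-Sry cells came from gonadal males, which carry Sry as an autosomal transgene. All 4 groups underwent gonadectomy when 4 to 6 weeks old, and their axillary, brachial and inguinal lymph nodes were collected when they were 8 to 12 weeks old. CD4+ T cells were enriched by magnetic removal of other cells and stimulated with beads carrying antibodies to CD3 and CD28 for 36 hours. Gonad type before surgery and the transgene go together in these groups and cannot be told apart. Nothing in the sources used here says that each library is a separate animal. The p-values therefore set differences between groups only against the spread among these libraries, and that spread may be technical in part.

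Neuritin is a small protein held on the outer face of the cell membrane by a glycosylphosphatidylinositol (GPI) anchor, and it can also be released. It is best known from neurons, where electrical activity induces it and where it supports the growth of neurites and the maturing of synapses, and it has been found in complexes with AMPA-type glutamate receptors. In the immune system it is known from regulatory, follicular regulatory and anergic CD4+ T cells of the mouse, in which the folate receptor 4 gene Izumo1r and the ecto-nucleotidase gene Nt5e (CD73) are also known to be high.

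Nrn1 lies on chromosome 13, from 36725361 to 36735131 on the minus strand (mm10, GENCODE M21). The annotation lists 5 protein-coding transcripts with 3 or 4 exons, and their exons together cover 2249 bases. Its last exon, which holds the 3' untranslated region, shares 501 bases with an exon of Fars2, a mitochondrial phenylalanyl-tRNA synthetase gene on the plus strand. The antisense gene Gm30177, not analysed here, overlaps its span on the plus strand. Whether counting used the strand is not stated in the labels or headers, and reads in the shared stretch cannot be assigned to either gene. Fars2 itself was at 14.7 to 17.5 CPM in the 12 libraries, where CPM is the count scaled by library size and TMM factor.

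Total counts ran from 11664186 to 16710188 per library. The mitochondrially encoded genes took 2.27% to 2.87% of the counts in 11 libraries and 5.01% in XX replicate 3, whose total was the smallest. The T cell markers summed to 2750 to 3054 CPM, with Cd4 at 855 CPM and Cd3e at 349 CPM on average. Markers listed for other cells were present at uneven levels. The B cell markers summed to 292.7 to 372.9 CPM, of which Ighm made up 331.6 on average while Ms4a1 averaged 0.251. The myeloid markers summed to 15.8 to 21.3 CPM, with Csf1r at 13.7 and Cd68 at 3.01 on average, and 3 of these 11 (Itgax, S100a8 and S100a9) had 0 counts in all libraries. The stromal, endothelial and neural markers summed to 80.7 to 128.1 CPM, of which Pecam1 averaged 91.95, and the CD8 T and NK cell markers to 43.4 to 87.4 CPM, with Eomes at 40.1 and Cd8b1 at 11.5 on average. The erythrocyte and platelet markers summed to 1.03 to 2.04 CPM, with Hba-a1 at 0. No count shows which cells in a library carried Nrn1: in bulk samples fewer cells of a type and less RNA per cell cannot be told apart.

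The level of Nrn1 stood at 73.1, 77.2 and 80.4 CPM in XX replicates 1 to 3. In XY- it was 70.0, 86.2 and 67.1 CPM. The XX values lay within the range of the XY- values. In XXSry the level was 60.7, 61.3 and 70.1 CPM. In XY-Sry it was 46.1, 42.6 and 42.9 CPM. All 3 XY-Sry libraries lay below all 9 others, a pattern that 2.28% of tested genes showed. These levels rest on 581 to 1213 reads per library. The exact 95% Poisson interval of the lowest count, 581 reads in XY-Sry replicate 3, ran from 39.5 to 46.6 CPM, and that of the highest level, XY- replicate 2, from 81.4 to 91.2 CPM. These intervals cover counting error only.

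**Figure D1:**
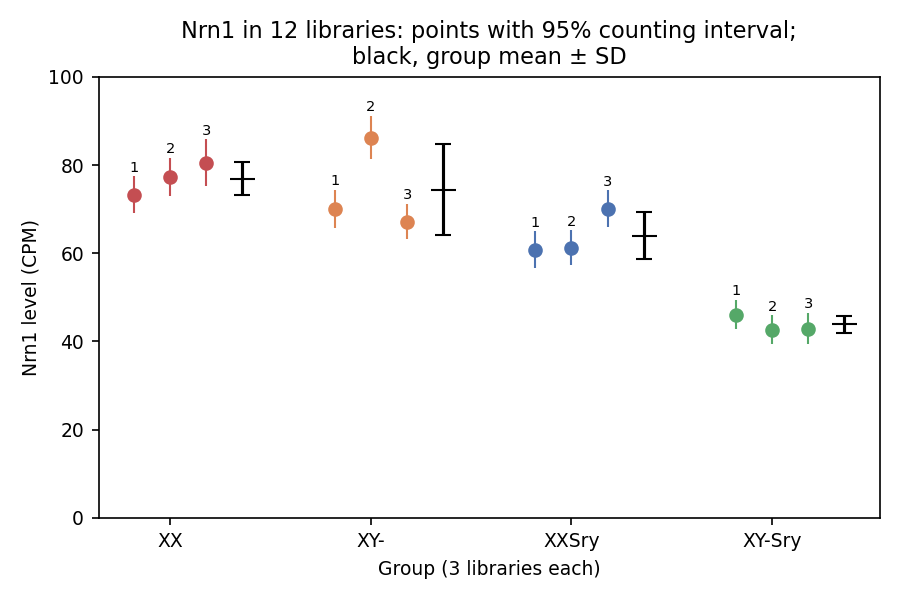
Nrn1 level in CPM (y axis) in the 12 libraries by group (x axis). Coloured points are libraries, labelled by replicate, with 95% counting intervals, and black marks are group means ± SD (n = 3); the 3 XY-Sry points, at 42.6 to 46.1 CPM, lie below all others.

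The order of the group means was XX (76.9 ± 3.66 CPM), XY- (74.4 ± 10.3), XXSry (64.0 ± 5.25) and XY-Sry (43.9 ± 1.93), each as mean ± SD with n = 3. XX and XY- overlapped, whereas 9.74% of tested genes showed no overlap between them. XY- and XXSry, the next neighbours, overlapped as well (18.4% of tested genes did not), since XXSry replicate 3 at 70.1 CPM lay above XY- replicates 1 and 3. XXSry and XY-Sry did not overlap. The spread differed between the groups: coefficients of variation were 4.76% (XX), 13.8% (XY-), 8.20% (XXSry) and 4.41% (XY-Sry), where counting error alone would give 3.02% to 3.86%. Per kilobase of exon, the scale on which genes can be compared, Nrn1 ranked between 1516 and 3450 of 14354 genes of known length in the 12 libraries. Its level averaged 28.8 CPM per kb, beside 29.7 for Foxp3, the lineage factor of regulatory T cells, 99.0 for Izumo1r, 3.74 for Nt5e and 212 for Cd4. Its only close relative, Nrn1l, which encodes a neuritin-like protein, had 4 to 14 reads per library (0.256 to 0.871 CPM) and did not pass the filter on low counts.

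Without the transgene, Nrn1 did not differ detectably between XX and XY- cells. The 6 libraries of this comparison played no part in the choice of the gene. The log2 difference, XX minus XY-, was 0.05 ± 0.09 (edgeR adjusted p = 0.93), with a 95% interval from -0.14 to 0.23, or from 0.908 to 1.18 as a ratio. The exact two-sided permutation test of log2 CPM gave p = 0.7, where the smallest p that 3 against 3 libraries allow is 0.1. The test called 0.103% of tested genes. XY- replicate 2 carried much of the spread here: without it the difference was 0.16, and without XY- replicate 3 it was -0.02.

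Between XXSry and XY-Sry, the comparison for which the gene was taken up, Nrn1 stood 1.46 times higher in XXSry, a difference of 20.2 CPM. The lowest XXSry library, at 60.7 CPM, was above the highest XY-Sry library, at 46.1 CPM. The log2 difference was 0.55 ± 0.09. Of all tested genes 4.10% had a larger difference in size, and 1.20% of genes at an average log2 CPM of at least 1. The libraries of these groups did not overlap for 20.2% of tested genes, and edgeR called 0.103%. Leaving out 1 library at a time moved the difference between 0.48, without XXSry replicate 3, and 0.58, without XY-Sry replicate 1. Whether it differed from that of XX and XY- is given no p for Nrn1, since the choice of the gene used the XXSry and XY-Sry difference. Over all tested genes, edgeR called 0 for a difference between these sex chromosome comparisons with and without Sry. The values with and without Sry are therefore set side by side as a description only.

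Cells with the Sry transgene had less Nrn1 than cells without it. As the mean of both sex chromosome types, Nrn1 fell by 0.51 ± 0.06 on the log2 scale with Sry (edgeR adjusted p = 0.00052), with a 95% interval from -0.65 to -0.38. The mean over the 6 libraries with Sry was 53.9 CPM against 75.7 CPM over the 6 without, 28.7% lower. This contrast is orthogonal to that of XXSry against XY-Sry, but it uses the same libraries and the same estimate of spread, so it is not fully independent of the choice of the gene. The groups overlapped, whereas 2.83% of tested genes showed no overlap: XXSry replicate 3 lay above XY- replicates 1 and 3. The exact two-sided permutation test within sex chromosome types gave p = 0.005, the smallest that its 400 arrangements allow. The test called 5.44% of tested genes in this contrast and 3.31% as lower with Sry, so Nrn1 was 1 of 483 such genes. Among the 441 of them at an average log2 CPM of at least 1, 123 had a larger fall. The call held in all 12 fits that left out 1 library (edgeR adjusted p = 0.00036 to 0.0033), with log2 differences from -0.55 to -0.45.

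Both parts of that mean share libraries with the comparison that chose the gene and are given as values. XXSry stood below XX by 12.9 CPM (16.8%), a log2 difference of -0.26 ± 0.09, and the libraries did not overlap, as for 7.99% of tested genes in that direction. XY-Sry stood below XY- by 30.6 CPM (41.1%), a log2 difference of -0.76 ± 0.09, again with no overlap, as for 11.6% of tested genes in that direction. Of tested genes 19.1% had a larger difference in size in the first pair and 2.43% in the second. The remaining pairs differ in sex chromosomes and transgene at once. XX stood above XY-Sry by a log2 difference of 0.81 ± 0.09, with no overlap, as for 28.9% of tested genes in either direction. XXSry stood below XY- by 0.22 ± 0.09 on the log2 scale, and these libraries overlapped.

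**Figure D2:**
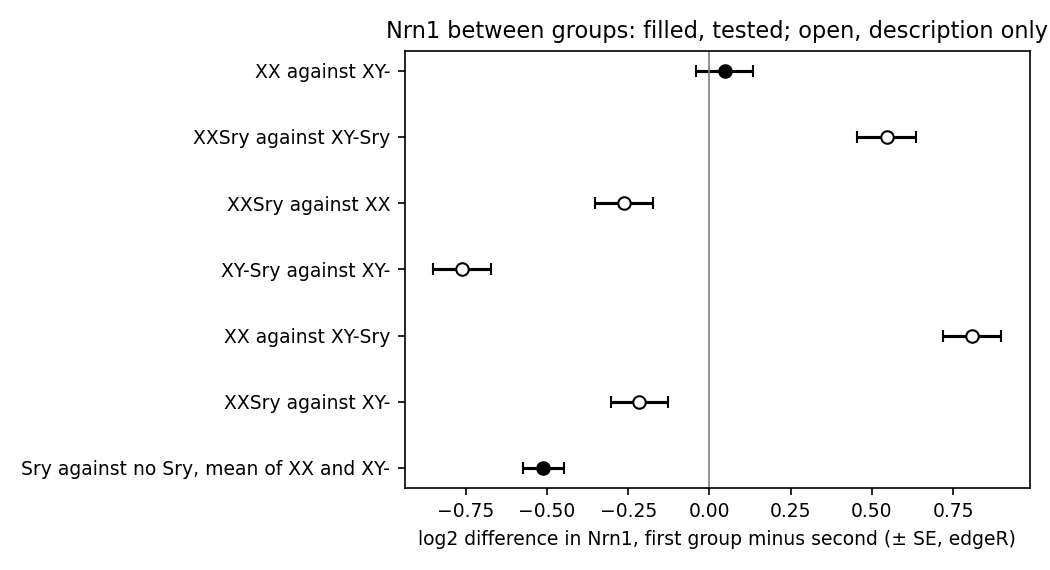
Log2 difference in Nrn1 (x axis, first group minus second, ± SE from edgeR) for the 6 pairs of groups and the mean Sry contrast (y axis). Filled points were tested and open points are descriptions; the value for XX against XY- is 0.05, and the 4 values that set XY-Sry or XXSry against a group without Sry all put the Sry group lower.

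Of the 5 nearest tested protein-coding genes on each side of Nrn1, 0 of 10 were called in XX against XY- or in XXSry against XY-Sry, where 0.103% of all tested genes were called in each. With Sry 1 of 10 was called, beside 5.44% of all tested genes. A list of 10 at those shares would hold few calls or none, so these counts cannot tell whether the neighbours differ from other genes. Fars2, the overlapping gene, had a log2 difference of 0.03 ± 0.06 with Sry (edgeR adjusted p = 0.81) and of -0.05 ± 0.08 between XXSry and XY-Sry (edgeR adjusted p = 0.88). On the other side, F13a1, the coagulation factor XIII A chain gene 132047 bases away, was at 0.665 CPM and had a log2 difference of 0.32 ± 0.30 with Sry (edgeR adjusted p = 0.59). Ppp1r3g, a gene for a glycogen-targeting subunit of protein phosphatase 1 that lies 754973 bases away, fell by 1.27 ± 0.30 with Sry on the log2 scale (edgeR adjusted p = 0.025). Its group means were 0.946 CPM (XX), 0.616 (XY-), 0.437 (XXSry) and 0.215 (XY-Sry), and 6 of the 12 fits without 1 library lost the call.

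**Figure D3:**
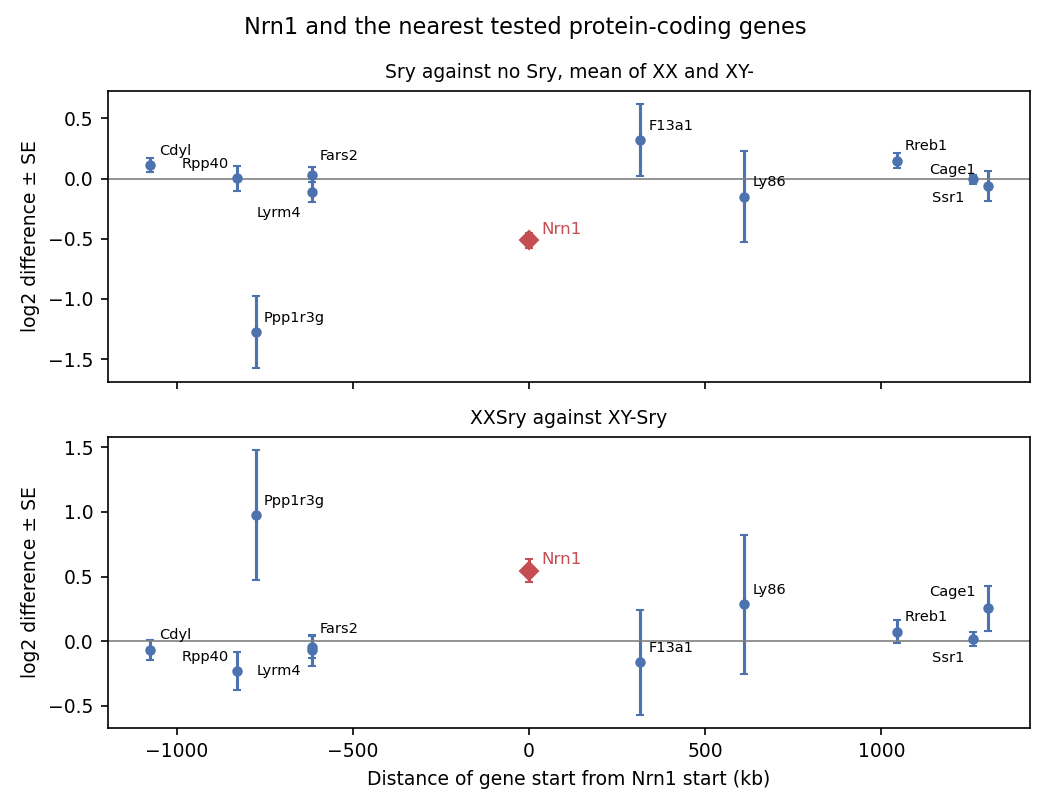
Log2 difference ± SE (y axis) of Nrn1, red, and of the 10 nearest tested protein-coding genes, blue, by distance of the gene start from that of Nrn1 in kb (x axis). The upper panel is Sry against no Sry as the mean of XX and XY-, where Ppp1r3g at -1.27 is the only neighbour called, and the lower panel is XXSry against XY-Sry, where no neighbour was called.

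Of 22 genes of the AMPA receptor complex and other reported partners, 11 passed the filter. The receptor subunits Gria1, Gria2 and Gria4 averaged 0.052, 0.115 and 0.063 CPM and were not tested, and Gria3 averaged 1.73 CPM. The 2 members with the highest mean CPM were Notch1, a receptor of cell fate signalling, at 400 CPM with a log2 difference of 0.18 ± 0.06 with Sry (edgeR adjusted p = 0.10), and Insr, the insulin receptor, at 37.1 CPM with 0.01 ± 0.06 (edgeR adjusted p = 0.97). The counts of called members were 0 of 11 in XX against XY- and in XXSry against XY-Sry, beside 0.103% of all tested genes in each, and 0 of 11 with Sry, beside 5.44%. A list of this size at those shares would hold few calls or none.

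RNA of some other genes for GPI-anchored surface proteins fell with Sry as that of Nrn1 did, and RNA of others rose. Of 17 tested members besides Nrn1, 4 fell and 2 rose, beside 3.31% and 2.13% of all tested genes, and the median log2 difference was -0.10 against 0.00 over all tested genes. This list and those below were chosen with earlier results of these data known, so their counts are descriptions and no test of enrichment. Izumo1r averaged 286.8 ± 41.5 CPM (XX), 254.0 ± 35.0 (XY-), 199.4 ± 17.7 (XXSry) and 178.7 ± 7.11 (XY-Sry), as mean ± SD with n = 3. It fell by 0.52 ± 0.08 on the log2 scale (edgeR adjusted p = 0.0018). Thy1, the classical surface marker of T cells, fell by 0.40 ± 0.07 (edgeR adjusted p = 0.0072). Nt5e fell by 0.58 ± 0.16 (edgeR adjusted p = 0.046). Ly6c1 fell by 0.65 ± 0.17 (edgeR adjusted p = 0.04), with reads that may be shared with its close copy Ly6c2. Plaur, the urokinase receptor, rose by 0.51 ± 0.10 (edgeR adjusted p = 0.0092) and Ly6e by 0.17 ± 0.04 (edgeR adjusted p = 0.02). Of the 6 calls, those of Izumo1r, Thy1 and Plaur held in all 12 fits without 1 library, while those of Nt5e, Ly6c1 and Ly6e ended in 9, 8 and 2 of them. In XX against XY- and in XXSry against XY-Sry 0 of 17 were called, beside 0.103% of all tested genes in each. Genes that build and attach the anchor showed 0 calls of 26 in all 3 comparisons, beside 5.44% of all tested genes with Sry and 0.103% in each of the other comparisons, with a median of -0.01 with Sry; Pigt, of the enzyme complex that attaches the anchor, had 0.08 ± 0.04 (edgeR adjusted p = 0.33) and Pigq, of the first step of its synthesis, -0.01 ± 0.04 (edgeR adjusted p = 0.92).

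Genes of regulatory and anergic T cells moved in both directions with Sry. Of 14 tested genes of regulatory and follicular regulatory T cells, 3 rose and 3 fell, beside 2.13% and 3.31% of all tested genes, with a median of -0.01. The fallen ones were Izumo1r, Nt5e and Il2ra, the alpha chain of the interleukin 2 receptor, which fell by 0.18 ± 0.04 (edgeR adjusted p = 0.02). The risen ones were Pdcd1 (PD-1) by 0.66 ± 0.10, Ikzf2 (Helios) by 0.41 ± 0.06 and Lag3 by 0.36 ± 0.07 (edgeR adjusted p = 0.0022, 0.0027 and 0.0079), an inhibitory receptor, a transcription factor and a second inhibitory receptor. Foxp3 averaged 136.1 ± 30.2 CPM (XX), 116.7 ± 17.9 (XY-), 155.1 ± 4.54 (XXSry) and 136.0 ± 5.70 (XY-Sry), as mean ± SD with n = 3, and its log2 difference was 0.21 ± 0.09 (edgeR adjusted p = 0.21). Izumo1r and Nt5e stand in this list, the anergy list and the GPI-anchored list, so these counts are not independent. Of 13 anergy genes, 3 rose (Nr4a1, Egr2 and Egr3) and 2 fell (Izumo1r and Nt5e), beside the same 2.13% and 3.31%, with a median of 0.02. The call of Il2ra ended in 5 of 12 fits without 1 library, while those of Pdcd1, Ikzf2 and Lag3 held in all 12.

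Some early genes that T cell receptor signals and neuronal activity both induce rose with Sry, where Nrn1 fell. Of 15 tested members 5 rose and 0 fell, beside 2.13% and 3.31% of all tested genes, and the median log2 difference was 0.31. This list too was chosen with earlier results of these data known, so its count is a description. The other 10 were not called, and among them the AP-1 subunit genes Fos (-0.42 ± 0.14, edgeR adjusted p = 0.094) and Fosl2 (-0.26 ± 0.09, edgeR adjusted p = 0.12) had the sign of Nrn1. Nr4a1, an orphan nuclear receptor, rose by 0.76 ± 0.09 (edgeR adjusted p = 0.00049). It averaged 75.5 ± 8.35 CPM (XX), 80.3 ± 15.05 (XY-), 120.5 ± 18.01 (XXSry) and 143.6 ± 11.2 (XY-Sry), as mean ± SD with n = 3. Junb, a subunit of the AP-1 transcription factor, rose by 0.31 ± 0.05 (edgeR adjusted p = 0.0027). The zinc finger transcription factor genes Egr2, Egr3 and Egr1 rose by 0.75 ± 0.17, 0.69 ± 0.17 and 0.56 ± 0.14 (edgeR adjusted p = 0.022, 0.026 and 0.032). The calls of Egr2, Egr3 and Egr1 ended in 4, 5 and 8 of 12 fits without 1 library, and those of Nr4a1 and Junb in 0. The number that rose was 2 without XXSry replicate 1, XXSry replicate 2 or XY-Sry replicate 1, and 3 without XX replicate 2, XY-Sry replicate 2 or XY-Sry replicate 3. Of the 12 tested calcineurin, NFAT, CREB and MEF2 genes, 1 fell, beside 3.31% of all tested genes: Ppp3cc, a catalytic subunit of calcineurin, by 0.32 ± 0.09 (edgeR adjusted p = 0.044), a call that ended in 8 of 12 fits. In both sex chromosome comparisons 0 members of these 4 lists were called, beside 0.103% of all tested genes in each. Lists of 12 to 15 tested genes at that share would hold few calls or none.

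**Figure D4:**
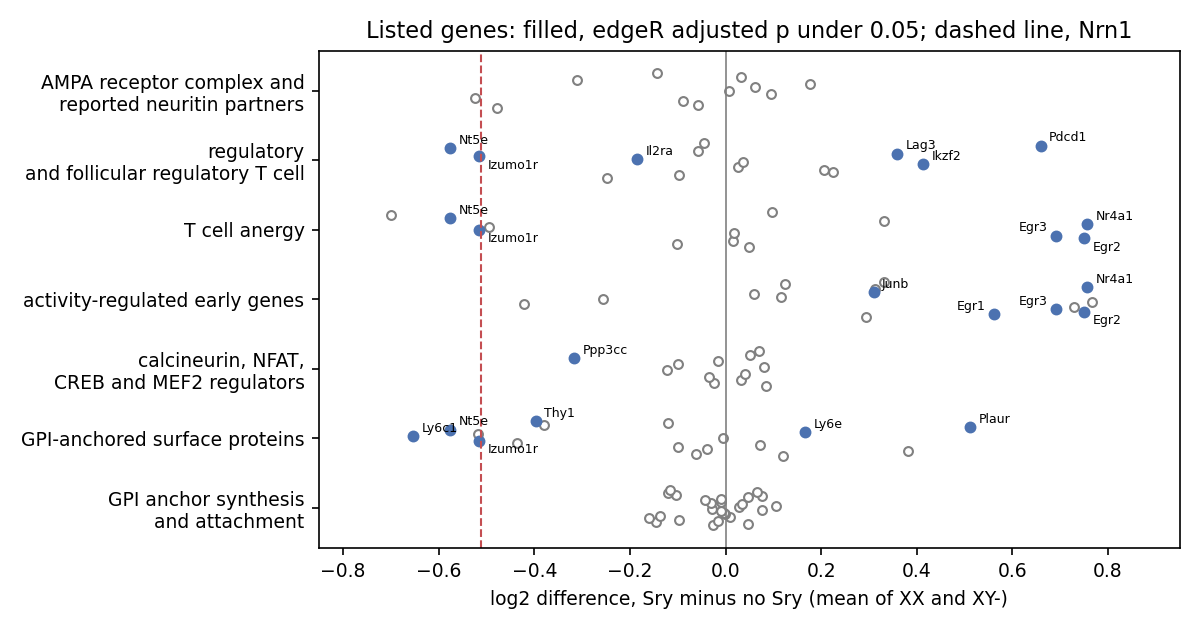
Log2 difference with Sry (x axis, mean of XX and XY-) of the tested members of each gene list (rows). Filled, named points passed an edgeR adjusted p of 0.05 and open points did not; the dashed line marks Nrn1 at -0.51, with Izumo1r close to it and Nr4a1, Egr2 and Egr3 on the opposite side of 0.

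Some markers of other lymphocytes moved in the same contrast. Of 5 tested CD8 T and NK cell markers 2 fell with Sry, beside 3.31% of all tested genes: Cd8a by 1.11 ± 0.18 and Klrk1 by 1.34 ± 0.30 (edgeR adjusted p = 0.0037 and 0.017), at average levels of 3.21 and 1.89 CPM, while Cd8b1 had 0.15 ± 0.07 (edgeR adjusted p = 0.24) and Eomes -0.39 ± 0.16 (edgeR adjusted p = 0.18). The summed level of the 8 listed markers spanned 43.4 to 87.4 CPM (XX), 55.8 to 72.1 (XY-), 46.3 to 52.0 (XXSry) and 47.9 to 59.98 (XY-Sry), so the summed levels of XXSry and XY-Sry overlapped. Of the 8 CD4 T cell markers, Cd5 rose by 0.20 ± 0.04 (edgeR adjusted p = 0.0079) and the other 7 were not called. Of 5 tested B cell, 3 myeloid, 4 stromal, endothelial and neural, and 1 erythrocyte and platelet markers, 0 were called, beside 5.44% of all tested genes. The part of these markers in the level of Nrn1 was not tested.

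Over the 12 libraries the levels of some other genes followed Nrn1 closely. Among 10620 protein-coding genes at an average log2 CPM of at least 1, the highest Pearson correlations of log2 CPM with Nrn1 were those of Mpp2, a membrane scaffold gene (r = 0.97), Elovl6, a fatty acid elongase gene (0.96), and Znrf3 and Sgk3, genes of a ubiquitin ligase and a protein kinase (0.95 each). They were followed by Gys1 and Gbe1, the glycogen synthase and glycogen branching enzyme genes, by Cdhr3, a cadherin-related gene, and by Stc2, which encodes stanniocalcin 2 (0.94 each). Mpp2 averaged 26.8 ± 1.29 CPM (XX), 24.9 ± 2.96 (XY-), 22.7 ± 1.34 (XXSry) and 17.9 ± 1.61 (XY-Sry), as mean ± SD with n = 3. Stc2 averaged 165.1 ± 12.7, 134.0 ± 27.3, 121.9 ± 21.5 and 84.1 ± 9.43 CPM in the same order. The lowest correlations were those of Txn1, the thioredoxin gene (-0.93), Efhd2, a calcium-binding protein gene (-0.93), Ung, a uracil-DNA glycosylase gene (-0.92), and Gpx1, a glutathione peroxidase gene (-0.92). Txn1 averaged 244.7 ± 7.70 CPM (XX), 255.1 ± 12.2 (XY-), 275.0 ± 10.02 (XXSry) and 296.2 ± 4.35 (XY-Sry), as mean ± SD with n = 3.

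These correlations describe a ranking over libraries that share group differences, and no p was taken since the genes were picked for their r. Spearman's rho of the 12 genes ran from 0.90 to 0.97 for the high ones and from -0.98 to -0.92 for the low ones. Without XY-Sry replicates 2 and 3, the libraries farthest from the median of Nrn1, r ran from 0.90 to 0.94 and from -0.95 to -0.86. As deviations from the group means, which take out the differences between groups, r ran from 0.68 to 0.88 and from -0.89 to -0.72. In all, 53 of the 10620 genes had r above 0.9 and 16 below -0.9, so the order at the top is close.

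**Figure D5:**
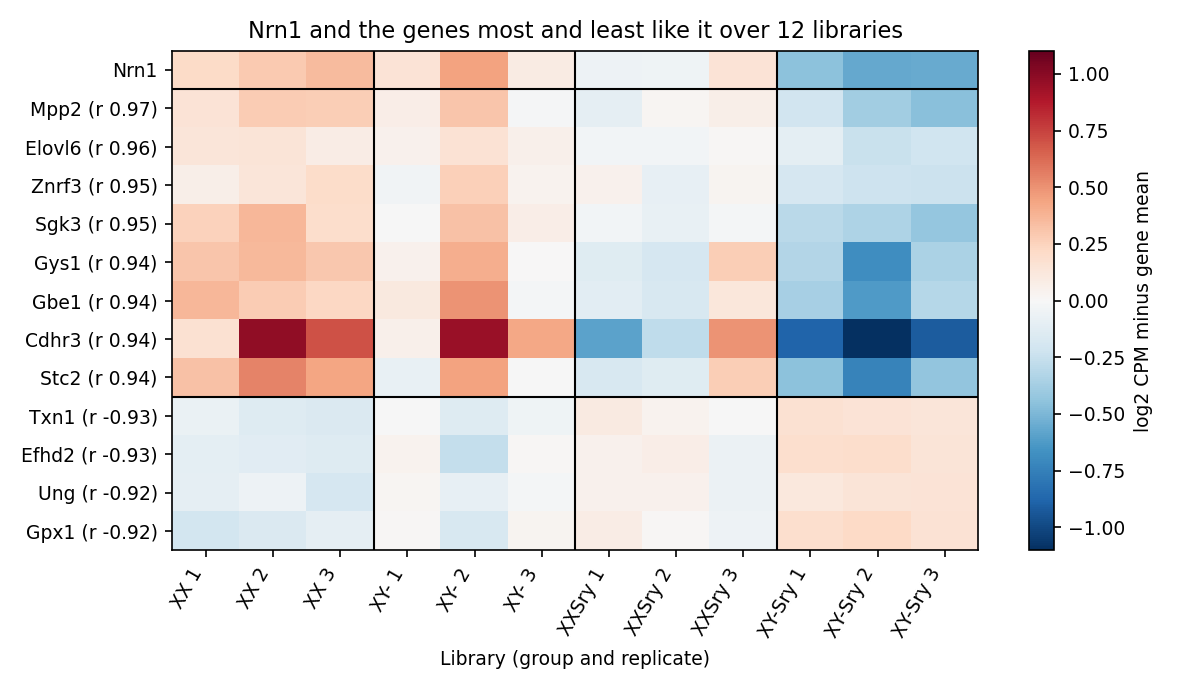
Log2 CPM minus the gene's mean (colour scale) of Nrn1, the 8 genes with the highest and the 4 with the lowest Pearson r to it (rows) in the 12 libraries (columns, by group). In the XY-Sry columns Nrn1 and the upper genes are below their means and the lower 4 genes above theirs, and XY- replicate 2 stands out within its group.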

How the data were processed

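RNA of 12 libraries was measured by sequencing. The authors deposited whole-number counts of reads for each Ensembl gene, with a column for each library and no normalization (per the file headers and values). The submitters' processing notes name bcl2fastq 2.17 and mm10. Aligner, counter and annotation release are not given in the sources used here. GENCODE M21 supplied names, positions and exon lengths for 37607 of 39017 identifiers.

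The main test was the quasi-likelihood F-test of edgeR 4.0.16 (R 4.3.3). It used filterByExpr (minimum count 10, minimum total 15), TMM factors and a group term fitted to the 12 libraries together, with Benjamini-Hochberg adjustment over 14585 genes and calls under 0.05. SE is the size of the log2 difference over the square root of F. Log2 CPM had a prior count of 2. The procedure was also run on counts simulated with known changes and the spread fitted here. Its outcome is not given and is not used as support. Such a run cannot show how it behaves where libraries are technical replicates or share a batch. Replicates of a group differed beyond sampling noise in all 12 pairs (chi-square per degree of freedom 2.47 to 18.0).

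The gene, the lists and the tests were chosen with earlier results of these data known. Named genes were Nrn1, Nrn1l, the 5 nearest tested protein-coding genes on each side, the 8 highest and 4 lowest in correlation, and list members called in a comparison (with none called, the 2 with the highest mean CPM). Low AMPA receptor subunits, Foxp3, Fos, Fosl2 and marker genes are named in addition, chosen after their values were seen. Alternatives were DESeq2 1.42.0, its size factors, no TMM, no mitochondrial genes, other filters, a replicate block, only the 2 groups compared, and each library left out.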

Additional observations from a re-analysis of the deposited data

How the results depend on the processing

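The log2 difference of Nrn1 kept its direction in all 7 contrasts under all settings, with the exception of XX against XY-, which was 0.05 and turned to -0.0218 without XY- replicate 3 (0.16 without XY- replicate 2, the ends of the range over the 12 libraries left out), and was not called in any fit. The fall with Sry stayed called throughout. The 12 fits without 1 library gave 0.48 to 0.58 for XXSry against XY-Sry, -0.33 to -0.23 for XXSry against XX, -0.83 to -0.64 for XY-Sry against XY-, 0.77 to 0.85 for XX against XY-Sry and -0.29 to -0.10 for XXSry against XY-. No filter on low counts raised the called genes from 15 to 124 in XX against XY-, from 15 to 368 in XXSry against XY-Sry and from 793 to 1494 with Sry, and DESeq2 called 24 in XXSry against XY-Sry. Leaving out 1 library gave 358 (without XY-Sry replicate 1) to 1282 (without XXSry replicate 3) called with Sry, 14 to 18 in XX against XY- and 11 to 17 in XXSry against XY-Sry. The cause of these changes was not tested. With a replicate block the differences were 0.05 in XX against XY-, 0.54 in XXSry against XY-Sry and -0.51 with Sry (edgeR adjusted p = 0.00083), with 944 genes called. The block changed no call of Nrn1. The labels do not say what same-numbered libraries share beyond the number. Their deviations correlated over 0.1 in 5 of 18 pairs (-0.16 to 0.23), and 4 of 12 libraries correlated best with their own number. The highest r, 0.23, was that of XY- and XXSry replicate 1. These values cannot show whether same-numbered libraries shared a batch.

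The genes most like Nrn1 depend on the measure. Of the 8 with the highest r, 2 were shared with the top 8 by Spearman, 0 by deviations from group means and 4 to 8 without 1 library. Of the 4 lowest, 1, 0 and 1 to 3 were shared. Counts of called list members under other settings were added after the data were seen: without XX replicate 3, 3 GPI-anchored genes fell and 2 rose, 5 early genes rose, and 4 regulatory T cell genes rose and 2 fell. Over the 12 fits without 1 library, 2 to 6 GPI-anchored and 1 to 3 regulatory T cell genes fell. So did 1 to 4 anergy and 0 to 2 calcineurin-related genes, and 2 to 6 early genes rose. Without XXSry replicate 3, 1 gene of the AMPA receptor list rose. In the same 12 fits 358 to 1282 of all tested genes were called with Sry. Counting error sets a limit mainly in XY-Sry, where it alone gives a coefficient of variation of 3.86% beside the 4.41% measured.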
